A study of Mus musculus with 12 samples.

Results

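Mouse Th17 cells that already had Stattic were compared with Th17 cells that had Kira8 and Stattic together, so that the difference is what Kira8 changed on top of Stattic. The comparison takes the libraries labelled Kira8+Stattic (replicates 1 to 3) against those labelled Stattic (replicates 1 to 3), 6 of the 12 samples, and was repeated without Stattic replicate 2, which leaves 5. All 12 samples have the genotype label WT and are T cells from lymph nodes that were differentiated from naive T cells to Th17 cells in culture, with no transgene or deletion named. The 4 groups of 3 samples are None, without an inhibitor, and Kira8, Stattic and Kira8+Stattic, each given for 4 h. The labels name no solvent for None, no dose and no age of the animals, and do not say whether replicates were separate animals or cultures, so p-values cover only how much these samples vary, and that variation may be technical. What was measured is the number of RNA sequencing reads per gene in total RNA. Because whole cultures were sequenced, fewer cells of a type and less RNA per cell cannot be told apart.

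Kira8 inhibits IRE1α, the product of Ern1, a sensor in the membrane of the endoplasmic reticulum (ER). When unfolded proteins accumulate, IRE1α cuts the Xbp1 mRNA so that it is spliced into a form coding for XBP1s, a factor that turns on genes for protein folding, secretion and lipid synthesis, and it also cuts other mRNAs at the ER. Stattic is a small molecule used to block STAT3, through which IL-6 and IL-23 drive Th17 cells to make IL-17A and IL-17F. Gene counts do not show Xbp1 splicing or STAT3 phosphorylation, so neither drug's direct action was measured here.

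Libraries held 51.7 to 85.9 M (megacounts) of reads, apart from Kira8 replicate 2 (19.8 M) and Stattic replicate 2 (9.28 M), and both of these stand apart from the rest. In Stattic replicate 2, 19.1% of all counts lay in Gm10800, a repeat-rich locus, and Hspa1a with Hspa1b, heat-shock genes, took 0.266% of counts against 2.182 to 4.934% in the other libraries given Stattic. Its Spearman correlation with other libraries across genes was 0.492 to 0.528, against 0.904 to 0.987 among the 10 others. Kira8 replicate 2 had 61.55% mitochondrial counts, against 3.379 to 5.221% in those 10. Results below are from a fit of the 10 other libraries, with 2 Stattic and 3 Kira8+Stattic libraries. Values from all 12 are given beside some, not all, of the results whose call or sign they change. With all 12, the change on top of Stattic had another sign in 49 of 171 genes followed, called or not. List medians near 0 turned as well, such as that of the Th17 programme, from -0.02 to 0.32. Levels are CPM, counts per megacount of the library, scaled by TMM, except that CPM of Stattic replicate 2 are unscaled. At these depths 3 counts equal 0.0349 to 0.0581 CPM in the 10 libraries and 0.323 CPM in Stattic replicate 2.

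Kira8 changed few genes measurably once Stattic was present. Of 21239 genes tested, 3 (0.0141%) passed edgeR's quasi-likelihood test at a Benjamini-Hochberg adjusted p under 0.05. They were Gzma, which was lower, and Gm21982 and Gm44503, a pair of loci of unclear identity, which were higher. At an unadjusted p under 0.05 there were 874 genes (4.12%), of which 507 were higher (2.39% of all tested) and 367 lower (1.73%). With all 12 libraries, 0 of 20993 genes passed (0%), the lowest adjusted p was 0.823, and 1050 genes (5%) had an unadjusted p under 0.05. On the same 12 libraries limma voom also called 0 and DESeq2 called 293, of which 50 were higher. The common dispersion, a measure of the spread between replicates, was 1.015 with 12 libraries and 0.1432 with 10. A fit of the 5 compared libraries alone called 23 of 19398 genes. Of these, 21 were higher, and 14 of them share a pattern across libraries, being found in None replicate 1 and all 3 Kira8+Stattic libraries, with oocyte genes such as Zp3 among them (values given further on). The 2 that were lower were Gzma and Gzmb.

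Gzma encodes granzyme A, a protease that cytotoxic lymphocytes store in granules and deliver to target cells. The gene lies on chromosome 13 (mm10, chr13:113093825-113100981, minus strand, protein-coding). It stood at 61.6 and 42.6 CPM in Stattic replicates 1 and 3, and at 13.1, 10.8 and 9.4 CPM in the 3 Kira8+Stattic libraries. All 3 libraries with both inhibitors lay below both with Stattic, with means of 11.1 ± 1.88 CPM (SD, n = 3) and 52.1 ± 13.5 CPM (SD, n = 2). The log2 change was -2.23 ± 0.21 (SE), a 4.70-fold fall with a 95% interval of -2.69 to -1.78, and an adjusted p of 0.00379 by edgeR's quasi-likelihood test. Without Stattic the fall was of the same size: None stood at 49.8, 55.2 and 40 CPM and Kira8 at 10.9 and 10.4, a log2 change of -2.19 ± 0.23. The difference between both Kira8 changes was -0.05 on the log2 scale (adjusted p = 0.966). Stattic replicate 2 had no Gzma read, and with it the change was -1.65 ± 1.52 (adjusted p = 0.971).

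Other granule genes were also lower with both inhibitors, but none passed the test in the 10-library fit. Gzmb, which encodes granzyme B (chr14:56258838-56262260, minus strand), was at 408 and 353 CPM with Stattic and at 153, 132 and 92.8 CPM with Kira8+Stattic, with no overlap between the groups. Its log2 change was -1.60 ± 0.25, a 3.03-fold difference with an adjusted p of 0.0981 by edgeR's quasi-likelihood test, and 0.0309 in the fit of the 5 compared libraries alone. For this gene the Kira8 change was larger without Stattic, from 964, 1368 and 744 CPM to 84.1 and 85.6 CPM (12.1-fold). The difference between both Kira8 changes of Gzmb was 2.00 on the log2 scale (adjusted p = 0.00867). Libraries with Stattic alone thus held less Gzmb than those of None. Prf1 encodes perforin, which forms the pores through which granzymes enter a target cell. It was at 84.7 and 56.9 CPM with Stattic and at 40.4, 34.2 and 16.1 CPM with both, again without overlap (log2 change -1.23, interval -1.91 to -0.55, adjusted p = 0.883). Gzmc, another granzyme gene, was at 15 and 13.3 CPM with Stattic and at 9.18, 5.01 and 5.27 CPM with both (-1.13, interval -1.72 to -0.54, adjusted p = 0.721).

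**Figure D1:**
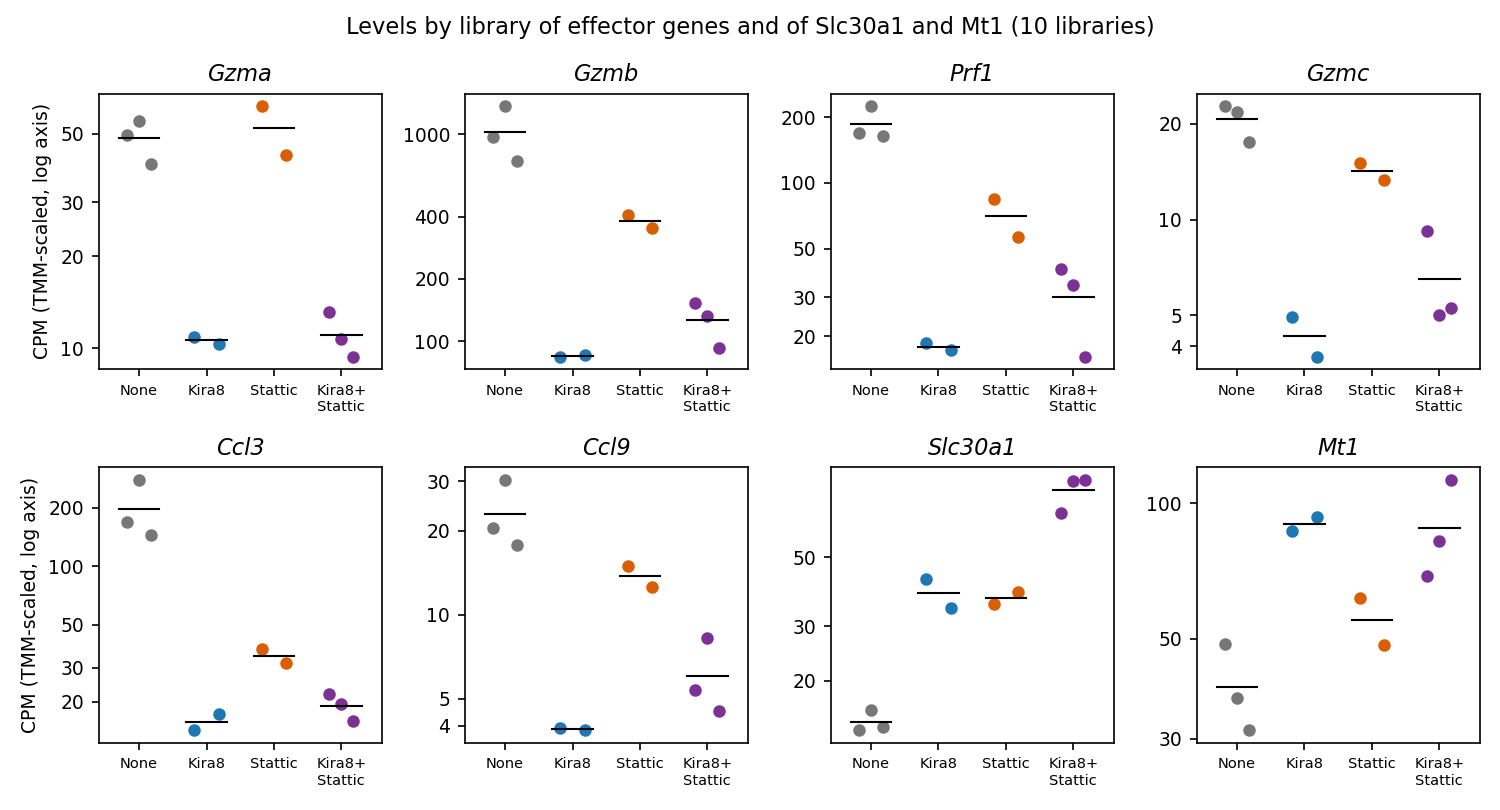
Levels (TMM-scaled CPM, log axis) of 8 genes in each of 10 libraries, by group; points are libraries and lines are group means. Gzma is about equally low in both groups with Kira8, whereas Gzmb is higher in each Kira8+Stattic library than in both Kira8 libraries, and Prf1 and Ccl3 overlap between these groups.

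Because granzymes and perforin mark CD8 T cells and natural killer (NK) cells as well as activated helper cells, other markers of those cells were set beside them. Cd8a, a subunit of the CD8 coreceptor, was at 36.6 and 28.7 CPM with Stattic and at 25.1, 34.2 and 15.4 CPM with both, and Nkg7, a granule membrane gene, was at 54.1 and 38.1 CPM against 44.2, 46.3 and 38 CPM, both with overlap. The log2 changes of Cd8a and Nkg7 were -0.39 and -0.11, and that of Cd8b1 was -0.10. Klrc1, Klrk1 and Klrd1 of the same list changed more, by -0.61 (interval -1.19 to -0.04), -0.58 and -0.44, also with overlap. Over the 9 tested CD8 and NK markers that are not granzymes or perforin, the median log2 change was -0.43. Of the 9, 0 lay without overlap in either direction, beside 9.77% above and 9.14% below of all genes tested, so 0 of 9 says little. Their summed level was 280 and 201 CPM with Stattic and 183, 224 and 141 CPM with both. Over the whole list of 13 tested markers, the sum was 835 and 654 CPM with Stattic and 389, 401 and 259 CPM with both. The list's median change was -0.58, with 1 of 13 positive and 1 member called (Gzma). The part of these cells in the granule gene values was not tested. Summed B cell markers spanned 83.0 to 157 CPM with Stattic and 87.6 to 159 CPM with both, and summed Th17 and CD4 markers 3396 to 3887 CPM and 3370 to 3605 CPM.

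A few chemokine, cytokine and costimulatory genes were lower with both inhibitors in every library without passing the test. Ccl9, a chemokine gene, was at 14.9 and 12.5 CPM with Stattic and at 5.36, 8.22 and 4.52 CPM with both (log2 change -1.18 ± 0.28, edgeR quasi-likelihood adjusted p = 0.721). Ccl3, which encodes the chemokine MIP-1α, was at 37.6 and 31.7 CPM with Stattic and at 22, 19.4 and 15.9 CPM with both, a change of -0.86 against -3.65 without Stattic. Ccl4, which encodes MIP-1β, overlapped between the groups, at 16.9 and 8.06 CPM with Stattic and 12.3, 13.6 and 7.9 CPM with both. Tnfsf8, which encodes CD30 ligand, was at 52.2 and 65.3 CPM with Stattic and at 24.1, 31.4 and 25.7 CPM with both. Its change of -1.12 (interval -1.59 to -0.64, adjusted p = 0.375) compares with -0.80 without Stattic, where it was called (adjusted p = 0.0263). Cd40lg, the CD40 ligand through which helper cells stimulate B cells, was at 55.6 and 53.8 CPM with Stattic and at 30.3, 40 and 29.9 CPM with both (-0.71). Tnf, the gene of tumour necrosis factor, was at 107 and 111 CPM with Stattic and at 60.3, 61.4 and 79.8 CPM with both (-0.70). In these 2 genes the groups did not overlap, and both adjusted p-values were 1. With all 12 libraries the changes of Cd40lg and Tnf were -0.13 and -0.18.

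Of the interleukin genes given here, Il3, Il22, Il21 and Il10 lay lower without overlap and Il13 higher with overlap, and none was called. Il3, Il22 and Il13 had low counts. Il3, a growth factor for myeloid cells, had 21 and 12 counts in the Stattic libraries and 0 in all 3 with both, at least 6.50-fold lower when 3 counts per library are taken as the floor (adjusted p = 0.375 by edgeR's quasi-likelihood test). It had 0 counts in both Kira8 libraries too, and 52, 147 and 64 in None. Il22, which acts on epithelial cells, had 16 and 31 counts with Stattic and 0, 0 and 4 with both (adjusted p = 0.442). On the other side Il13, a Th2 cytokine gene, had 0 counts in both Stattic libraries and 13, 4 and 0 with both, which overlap (unadjusted p = 0.022, edgeR adjusted p = 1). Il21, which signals back through STAT3, was at 170 and 189 CPM with Stattic and at 123, 119 and 124 CPM with both (log2 change -0.55, adjusted p = 1), and with all 12 libraries its change was 0.00. Il10, an anti-inflammatory cytokine gene, was at 7.86 and 7.84 CPM with Stattic and at 4.06, 6.39 and 4.89 CPM with both (-0.62, interval -1.17 to -0.06), against a change of -3.03 with Kira8 alone. Ifng, the gene of interferon-γ, overlapped between the groups, at 18.1 and 8.15 CPM with Stattic and 8, 11.7 and 5.42 CPM with both.

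On the higher side were genes that handle zinc, none of which passed the test. Slc30a1 encodes ZnT1, which exports zinc from the cell (chr1:191906767-191913247, plus strand), and metal-bound MTF-1 is known to turn it on together with the metallothionein genes Mt1 and Mt2. It was at 35.4 and 38.7 CPM with Stattic and at 69.6, 88.1 and 89.1 CPM with both, without overlap. The log2 change was 1.15 ± 0.17, a 2.22-fold difference with an interval of 0.77 to 1.53 and an adjusted p of 0.0981 by edgeR's quasi-likelihood test. None stood at 13.9, 16.1 and 14.2 CPM and Kira8 at 42.5 and 34.3 CPM, so the Kira8 change without Stattic was 1.38, and the difference between both changes was -0.23 (adjusted p = 0.616). Mt1 and Mt2 were looked at after the values of Slc30a1 were seen. Mt1 was at 61.7 and 48.4 CPM with Stattic and at 68.8, 82.6 and 113 CPM with both (0.68, interval 0.16 to 1.19, adjusted p = 1). Mt2 was at 36 and 32.1 CPM against 42.7, 46.2 and 60.9 CPM (0.55, interval 0.02 to 1.08). In neither gene did the groups overlap.

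Micu3 was also higher, with a smaller p than Slc30a1, but did not pass the test. It encodes a regulator of the mitochondrial calcium uniporter (chr8:40307458-40386308, plus strand). It was at 2.87 and 3.14 CPM with Stattic and at 15, 9.2 and 11.8 CPM with both, a 3.99-fold difference (log2 change 2.00 ± 0.28, adjusted p = 0.0578 by edgeR's quasi-likelihood test). None stood at 11.7, 19 and 14.9 CPM and Kira8 at 18.4 and 22.3 CPM, so the gene was low only in the Stattic libraries. The difference between both Kira8 changes was 1.57 (adjusted p = 0.0231). In the fit of the 5 compared libraries alone Micu3 was called (adjusted p = 0.0438). The next genes by p were Pip4p1, a lipid phosphatase gene of the lysosome, Lrfn4 and Aacs, which activates acetoacetate for lipid synthesis. Pip4p1 was at 67.8 and 63.7 CPM with Stattic and at 91.1, 112 and 96.7 CPM with both. Lrfn4 was at 12.7 and 14.7 CPM against 20.4, 26.2 and 26.5 CPM. Aacs was at 46.3 and 42.2 CPM against 63, 66.8 and 63 CPM. None of these 3 passed the test, with adjusted p-values of 0.721, 0.721 and 0.827, and none overlapped between the groups.

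Both loci called as higher overlap other genes, and counting may have split reads between them. Gm21982 (chr7:30641001-30664937, minus strand) is annotated as a processed transcript and overlaps Rbm42 and Haus5. It was at 0.625 and 0.925 CPM with Stattic and at 36.7, 16.3 and 12.9 CPM with both (log2 change 4.82 ± 0.50, adjusted p = 0.00529 by edgeR's quasi-likelihood test). In None it was at 45.6, 41.6 and 26.8 CPM, and in Kira8 at 24.4 and 24.1 CPM, so Stattic replicates 1 and 3 were the low libraries. Stattic replicate 2 held 76.5 CPM of it, and with all 12 libraries the change was -0.53. Gm44503 (chr9:72958852-73016319, plus strand) overlaps Ccpg1 and Dyx1c1. It had 0 counts in both Stattic libraries and 205, 253 and 376 counts with both inhibitors, at least 74.2-fold higher over a floor of 3 counts per library (adjusted p = 0.0193). It also had 0 counts in all 3 None libraries and in Kira8 replicates 1 and 3, 72 in Kira8 replicate 2 and 81 in Stattic replicate 2. With all 12 libraries the call was lost, at a change of 0.29 (adjusted p = 0.986). Rbm42, an RNA-binding protein gene, was at 109 and 93.2 unscaled CPM with Stattic and at 66.6, 98.9 and 100 with both. Ccpg1, a receptor gene for autophagy of the ER, was at 44.4 and 50 unscaled CPM against 38.6, 39.2 and 39.6, without overlap. Among the 5 compared libraries Rbm42 was lowest in the one with the most Gm21982, Kira8+Stattic replicate 1. Over the 10 libraries this did not hold. None replicate 1 had the most Gm21982, with Rbm42 at 76.0 unscaled CPM, and Rbm42 was lowest in None replicate 2 (43.3). Whether reads were split between the overlapping loci was not tested.

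Cholesterol genes lay mostly on the higher side. SREBP2 turns on the enzymes of this pathway when sterols fall short. Of 25 tested genes of cholesterol synthesis none passed the test, 13 lay without overlap above Stattic, as did 9.77% of all genes tested, and 1 lay below, as did 9.14% of all. The unadjusted p was under 0.05 for 6 of the 25 on the higher side and for 0 on the lower side. Their median log2 change was 0.24, beside 0.008 over all genes tested, and 21 of 25 were positive. Hmgcs1, which makes HMG-CoA for the mevalonate pathway, was at 382 and 364 CPM with Stattic and at 580, 556 and 544 CPM with both (log2 change 0.59, interval 0.20 to 0.97, unadjusted p = 0.0064, edgeR adjusted p = 1). Sqle, squalene epoxidase, was at 156 and 146 CPM against 214, 213 and 202 CPM (0.47). In both genes every library with both inhibitors lay above both with Stattic. Cyp51 and Hsd17b7, enzymes of later steps, changed by 0.54 and 0.51, while Srebf2 itself (0.01) and Mvd (-0.08), an enzyme of the mevalonate pathway, were near 0. Without Stattic, Kira8 went with 20 of the 25 higher and 0 lower by the test, beside 9.7 and 9.59% of all genes tested. Their median change was then 0.93. The difference between both Kira8 changes was called for 7 of the 25, among them Hmgcs1 (-1.12), beside 8.52% of all genes tested.

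ER chaperone genes, which fell with Kira8 alone, were near their Stattic level with Kira8 on top of Stattic. ATF6 and XBP1s turn on many of them through the ER stress element, written CCAAT, 9 bases of any kind, then CCACG. Within 300 bases around the start (250 before to 50 after), 9 of the 17 listed genes with a promoter sequence held it on either strand (52.9%), against 39 of 32851 promoters of that length (0.119%). The list was chosen as ATF6 targets and ER chaperones, so a high share comes with that choice and is no result of these data. Sequences of 69 bases around the element are shown for 5 chaperone genes that were called lower with Kira8 alone and not on top of Stattic, and then for Syvn1 and Derl3, which have the element and were not called in either case. They are from RefSeq (GRCm38.p6, the assembly of mm10), 5′ to 3′ on the gene's strand, with both parts of the element in capitals (CCAAT and CCACG, or ATTGG and CGTGG where it lies on the other strand). A match of letters is a description and no evidence of binding in these cells.
Calr, chr8:84847050-84847118, minus strand: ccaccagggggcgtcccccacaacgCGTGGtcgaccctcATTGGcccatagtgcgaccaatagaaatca
Hsp90b1, chr10:86705613-86705681, minus strand: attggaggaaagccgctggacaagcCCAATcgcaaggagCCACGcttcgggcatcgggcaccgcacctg
Pdia6, chr12:17266466-17266534, plus strand: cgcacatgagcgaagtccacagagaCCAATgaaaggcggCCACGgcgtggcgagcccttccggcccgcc
Creld2, chr15:88819495-88819563, plus strand: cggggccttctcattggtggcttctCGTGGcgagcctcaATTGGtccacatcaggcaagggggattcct
Dnajc3, chr14:118937802-118937870, plus strand: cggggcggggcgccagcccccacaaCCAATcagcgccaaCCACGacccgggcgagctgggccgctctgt
Syvn1, chr19:6046507-6046575, plus strand: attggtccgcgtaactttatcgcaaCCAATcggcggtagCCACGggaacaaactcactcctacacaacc
Derl3, chr10:75893217-75893285, plus strand: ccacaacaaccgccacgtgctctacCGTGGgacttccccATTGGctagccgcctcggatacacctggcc

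Of the 19 tested ER chaperone and ATF6 target genes, 13 were lower and 0 higher with Kira8 alone (beside 9.59% lower and 9.7% higher of all genes tested), with a median log2 change of -0.82. On top of Stattic 0 of 19 passed the test, 1 had an unadjusted p under 0.05 (Sdf2l1), the median was 0.06, 16 were positive, and 18 had an interval within 2-fold either way. Hspa5, which encodes the chaperone BiP, was at 1009 and 1267 CPM with Stattic and at 1057, 1050 and 1461 CPM with both (0.06, interval -0.54 to 0.66), against 907, 1660 and 846 CPM in None and 474 and 482 CPM in Kira8. Calr, the gene of the lectin chaperone calreticulin, whose element is shown above, was at 426 and 400 CPM against 431, 400 and 451 CPM, a change of 0.05 with Stattic and -0.80 without. Pdia6, a disulfide isomerase gene with the element on its own strand, was at 97.3 and 83.8 CPM against 129, 90.6 and 106 CPM (0.26 with Stattic, -1.37 without). In these 3 genes the groups with Stattic overlapped. Hsp90b1, which encodes GRP94, changed by 0.01 with Stattic and by -0.91 without, and Creld2, another ER folding gene, by 0.09 and -1.17. The difference between both Kira8 changes was called for 8 of the 19 genes, beside 8.52% of all genes tested. Pdia4, a disulfide isomerase gene among the 8, was at 37.6 and 43.9 CPM with Stattic and at 46.4, 42.1 and 44.8 CPM with both. The difference between its Kira8 changes was 1.89. Sdf2l1, an ER protein that works with BiP, was that member with an unadjusted p under 0.05 and lay on the higher side, at 12.6 and 11 CPM with Stattic against 16.4, 14.9 and 15.8 CPM with both (0.41, unadjusted p = 0.0274, edgeR adjusted p = 1). Stattic replicate 2 held 88.6 unscaled CPM of it, and with all 12 libraries the change was -1.49. It had been at 27.9, 27 and 25.8 CPM in None and 7.42 and 6.88 CPM in Kira8.

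**Figure D2:**
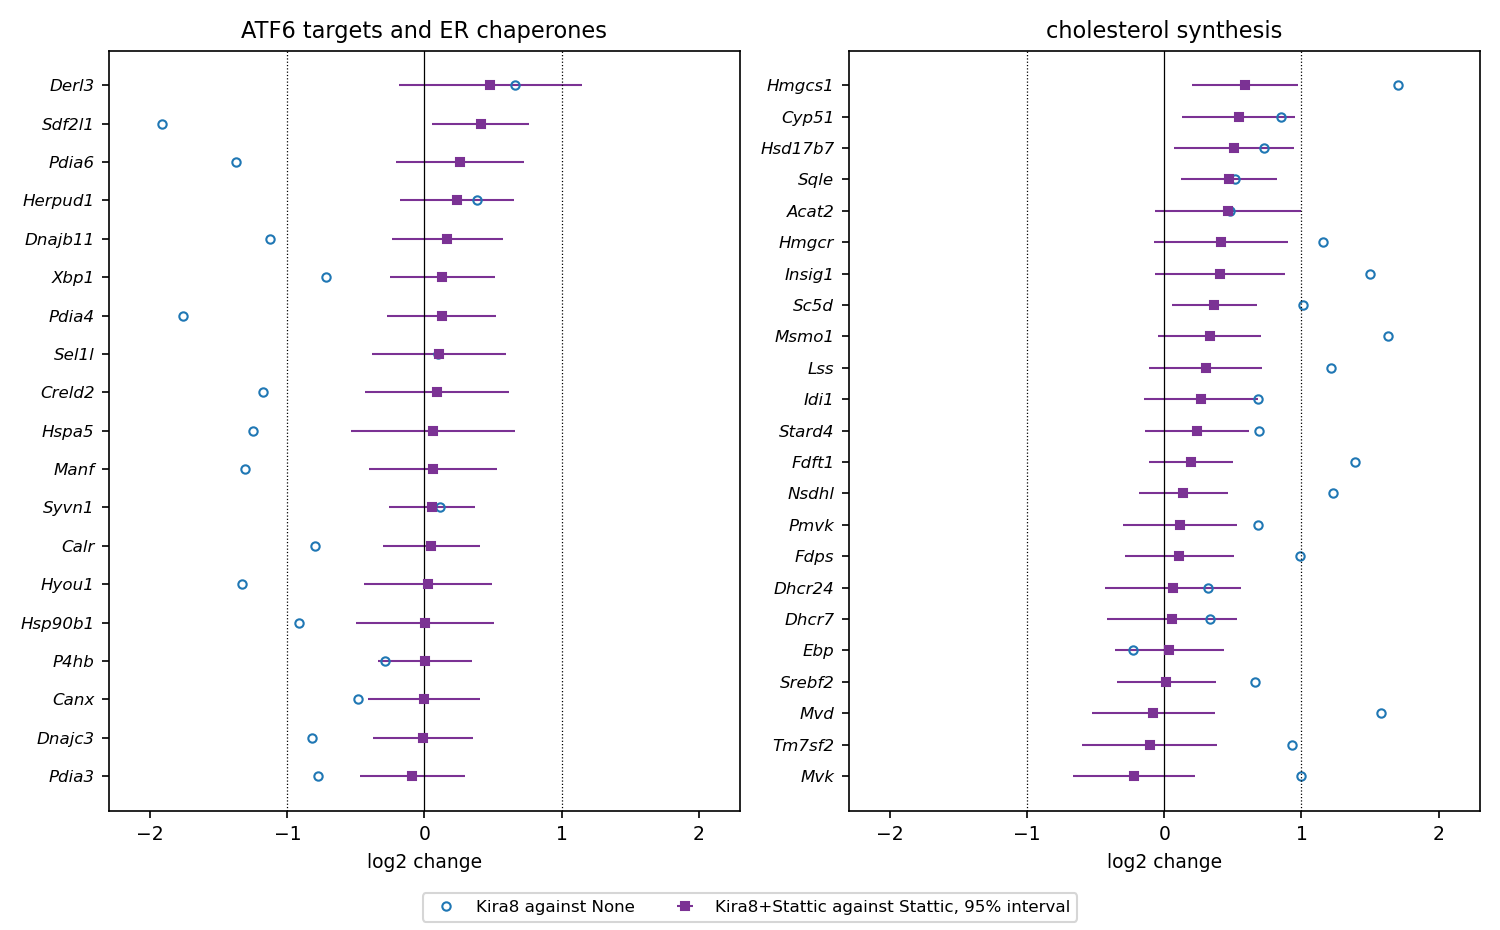
Log2 changes of ER chaperone genes and of cholesterol synthesis genes (some of the listed genes are not drawn): squares with 95% intervals are Kira8+Stattic against Stattic, open circles Kira8 against None, and dotted lines a 2-fold change. ER genes sit near 0 with Stattic (median 0.06) and below 0 without it (median -0.82), whereas most cholesterol genes sit above 0 in both.

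All 23 tested genes with the ER stress element, listed or not, had a median change of 0.064 on top of Stattic, with 0 called. Of the 23, 4 lay above Stattic without overlap and 0 below, beside 9.77 and 9.14% of all genes tested. With Kira8 alone their median was -0.35, with 6 lower and 1 higher by the test, beside 9.59 and 9.7% of all genes tested. The 6 are Calr, Hsp90b1, Pdia6, Creld2, Dnajc3 and Hspa5, all in the ER chaperone list, so no element gene outside that list was called lower. Canx, Syvn1 and Derl3 of the list have the element and were not called. Pdia4 and Sdf2l1, listed genes not among the 9 with the element, were called lower too (-1.76 and -1.91). Among 32 targets of spliced XBP1, 11 were lower and 2 higher with Kira8 alone (median -0.38), beside the same shares of all genes. On top of Stattic the median was -0.01, 0 were called at an adjusted or an unadjusted p under 0.05, and 31 had an interval within 2-fold. The 10 tested mRNAs known to be cut by IRE1α directly had a median of -0.04, with 5 positive. Ern1 itself was at 25.8 and 35.8 CPM with Stattic and at 31.4, 32.9 and 31.9 CPM with both (0.06, interval -0.53 to 0.65). Xbp1, counted over all its splice forms, was at 193 and 172 CPM against 189, 193 and 216 CPM (0.13, interval -0.25 to 0.51).

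Genes that Kira8 changed without Stattic as a rule had values near 0 on top of it. Kira8 against None called 2060 genes as higher (9.7% of all tested) and 2037 as lower (9.59%) by edgeR's quasi-likelihood test. That comparison shares no library with Kira8+Stattic against Stattic, though it comes from the same fit. The 2060 higher genes had a median change of 1.05 alone and 0.007 on top of Stattic, where 1069 had the same sign (51.9%). Of them 247 lay above Stattic without overlap (11.99%, beside 9.77% of all genes) and 247 below (11.99%, beside 9.14%). There were 63 higher and 45 lower at an unadjusted p under 0.05 (3.06 and 2.18%, beside 2.39 and 1.73% of all genes), with 0 called. The 2037 lower genes had a median of -1.03 alone and 0.015 on top of Stattic, where 946 had the same sign (46.4%). Of them 174 lay below without overlap (8.54%, beside 9.14% of all genes) and 218 above (10.7%, beside 9.77%). At an unadjusted p under 0.05, 55 were lower and 53 higher (2.70 and 2.60%, beside 1.73 and 2.39% of all genes), and 1 was called, Gzma. Over the 9648 genes whose mean reached 5 CPM in both sets of libraries, Pearson's r between both changes was 0.018 and Spearman's rho 0.0067, across genes, which are not independent replicates. The SD of the changes was 0.717 without Stattic and 0.258 with it.

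**Figure D3:**
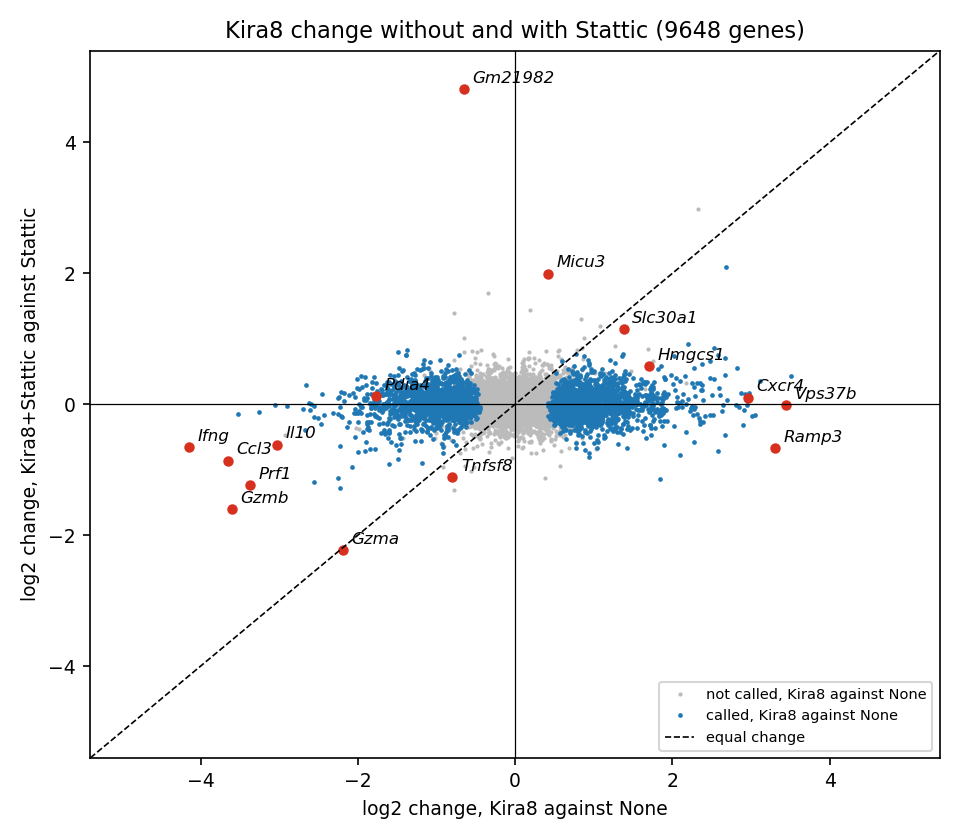
Log2 change by Kira8 alone (x axis) against that by Kira8 on top of Stattic (y axis) for 9648 genes of at least 5 CPM; blue points were called with Kira8 alone and grey ones were not, red points are named and the dashed line marks equal change. The cloud is wide along x (SD 0.717) and narrow along y (SD 0.258), and Gzma and Slc30a1 lie near the dashed line.

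Several genes with large Kira8 changes alone show values near 0 on top of Stattic. Vps37b, a subunit of the ESCRT-I sorting complex, rose with Kira8 alone from 18.8, 26 and 23.5 CPM to 272 and 226 CPM. With Stattic it was at 315 and 203 CPM, and with both at 259, 272 and 241 CPM, a change of -0.01 with an interval of -0.46 to 0.44. Cxcr4, the receptor for the chemokine CXCL12, rose alone from 23.5, 31.9 and 18.4 CPM to 169 and 213 CPM. With Stattic it stood at 212 and 235 CPM and with both at 208, 254 and 258 CPM (0.10). Lpin1, a phosphatidate phosphatase gene, followed the same order, at 15, 12.7 and 22 CPM in None and 131 and 128 CPM in Kira8, then 213 and 219 CPM with Stattic and 238, 254 and 235 CPM with both (0.17). In these 3 genes Stattic alone was already at or above the Kira8 level. A different order was seen in Casz1, a zinc finger factor gene. It rose with Kira8 alone from 7.3, 11 and 10.4 CPM to 60.2 and 98.9 CPM, but was at 12.6 and 23.8 CPM with Stattic and 13.9, 12.7 and 22.4 CPM with both. Prag1, a pseudokinase gene, fell with Kira8 alone from 20.6, 28.9 and 22.1 CPM to 2.18 and 2.8 CPM, and was at 15.5 and 17.4 CPM with Stattic and 13.4, 16.3 and 15.8 CPM with both (-0.12). For Casz1 and Prag1, levels in libraries with Stattic stayed on the None side, with or without Kira8. Other large changes alone were smaller on top of Stattic but further from 0. F2rl2, a receptor gene of the thrombin receptor family, changed by -4.29 alone and -0.72 on top of Stattic, Ifng by -4.15 and -0.65, and Ccl3, Gzmb and Prf1 as given above.

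The interaction, which subtracts the Kira8 change without Stattic from that with it, was called for 1810 genes (8.52% of all tested). Among the 2060 genes higher with Kira8 alone it was called for 816, and among the 2037 lower for 913, in every case toward a smaller change with Stattic. The choice of these genes by their change alone makes that direction likely, so it is given as a count and supports nothing further. Of genes changed at least 2-fold and called with Kira8 alone, 698 of 1110 higher (62.9%) and 716 of 1080 lower (66.3%) had a 95% interval within 2-fold on top of Stattic, against 48.9% of all genes tested. Where the mean reached 5 CPM the counts were 644 of 749 (86.0%) and 617 of 697 (88.5%), beside 9446 of all 10223 genes at that level, so the shares were not above that of all genes.

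Among the 578 tested genes of 29 lists, Gzma was called on top of Stattic and no other member was. The counts below for Kira8 alone stand beside 9.59% lower and 9.7% higher of all genes tested. MYC targets and genes of ribosome biogenesis are needed for growth. Of these 30 genes, 28 were lower with Kira8 alone (median -1.45), and on top of Stattic the median was 0.08, 0 were called, 2 were lower at an unadjusted p under 0.05, and all 30 had an interval within 2-fold. Nop56, a nucleolar protein of box C/D snoRNPs, was at 260 and 297 CPM with Stattic and at 365, 328 and 380 CPM with both (0.36), while Wdr12, a pre-ribosome factor, was at 64.2 and 61.9 CPM against 49.4, 50 and 49.4 CPM (-0.35). Myc itself was at 175 and 180 CPM with Stattic and at 130, 118 and 142 CPM with both (-0.45, interval -0.85 to -0.04, edgeR adjusted p = 1, and 0.05 with all 12 libraries). In all 3 genes the groups did not overlap. Autophagy and lysosome genes, 17 of 35 higher with Kira8 alone (median 0.55), had a median of -0.01 and all 35 within 2-fold. ATF4 and CHOP targets, the arm of the stress response that includes amino acid supply, were higher with Kira8 alone in 13 of 35 (median 0.47), with a median of 0.04 on top of Stattic. S phase genes (14 of 32 lower alone, median -0.53) had a median of 0.07 on top of Stattic, and mitosis genes (8 of 24 lower alone) one of 0.15 with 21 positive. Targets of HSF1, the heat-shock factor, had a median of 0.20 with 22 of 23 positive and 0 with an unadjusted p under 0.05. Of the 23, 1 lay above Stattic without overlap, beside 9.77% of all genes tested. Dnajb1, an HSP40 cochaperone in that list, was at 766 and 1014 CPM with Stattic and at 867, 1282 and 1587 CPM with both (0.48).

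**Figure D4:**
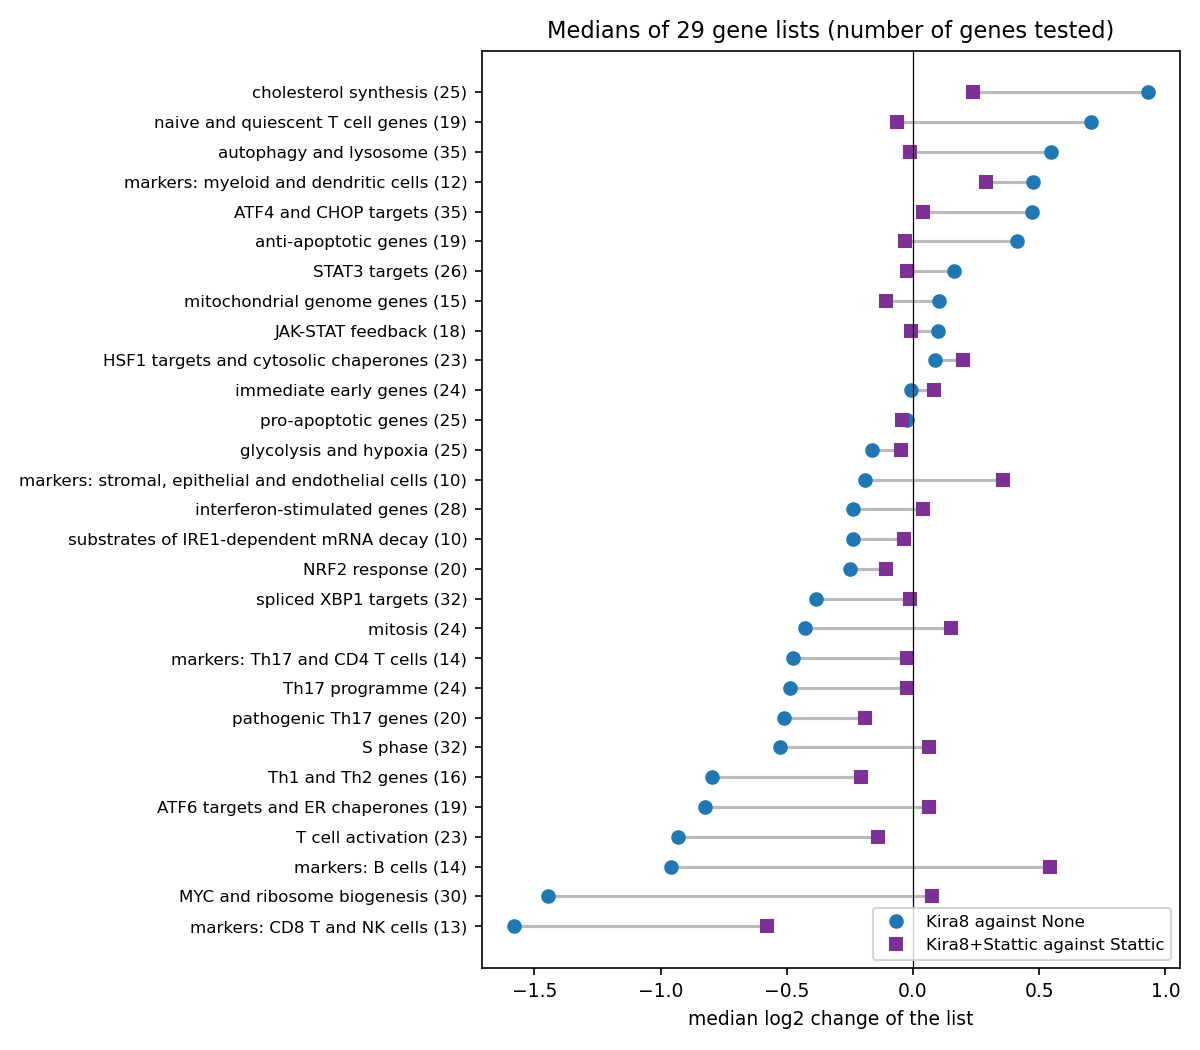
Median log2 change of the tested genes of each of 29 lists: blue circles are Kira8 against None and purple squares Kira8+Stattic against Stattic. MYC and ribosome genes lie at -1.45 without Stattic and 0.08 with it, and CD8 and NK markers have the lowest median of the 29 lists on top of Stattic (-0.58).

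T cell effector lists leaned lower on top of Stattic, as small differences. Of 20 genes tied to pathogenic Th17 cells, the subset that drives autoimmune inflammation, 2 were positive, 7 lay below Stattic without overlap (against 9.14% of all genes), 0 above, 5 were lower at an unadjusted p under 0.05, and the median was -0.19, with 0 called. The 7 are Il22, Il3, Gzmb, Ccl3, Lgals3, Icos and Il1r1, and the values of the first 4 are given above. Lgals3, the galectin-3 gene, was at 143 and 106 CPM with Stattic and at 77, 84.1 and 86.1 CPM with both (-0.59). T cell activation genes had a median of -0.14, with 5 of 23 below without overlap and 0 above (9.14 and 9.77% of all genes). The core Th17 programme of 24 genes had a median of -0.02, with 6 below and 1 above without overlap. B cell markers had a median of 0.54, with 12 of 14 positive and 1 above without overlap, but 3 of 14 had an interval within 2-fold. Interferon-stimulated genes split, with 4 of 28 above and 6 below without overlap, also beside 9.77 and 9.14% of all genes. Gbp2, an interferon-induced GTPase, was at 1372 and 1154 CPM with Stattic and at 819, 780 and 932 CPM with both (-0.58), while Stat2, which relays interferon signals, was at 38.9 and 40.4 CPM against 62, 61.2 and 43.6 CPM (0.49). With all 12 libraries the median over all genes tested was 0.20 in place of 0.008. The medians were then 0.14 for pathogenic Th17 genes and 0.24 for activation genes, so their sign turned. Set against the 0.20 of all genes, pathogenic Th17 genes still lay lower, while activation genes did not. The medians of CD8 and NK markers (-0.64), cholesterol genes (0.66) and ER chaperones (0.46) kept their sign.

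The IL-17 genes that define Th17 cells were not measurably changed by Kira8 on top of Stattic. Il17a was at 165 and 134 CPM with Stattic and at 144, 180 and 162 CPM with both (log2 change 0.12, interval -0.95 to 1.18). Il17f was at 221 and 186 CPM against 212, 173 and 217 CPM (-0.02, interval -0.95 to 0.91). Both overlapped between the groups, and their wide intervals leave room for changes of about 2-fold, and for more in Il17a. Stat3, the gene of Stattic's target, was at 538 and 496 CPM with Stattic and 560, 552 and 471 CPM with both (0.03, interval -0.30 to 0.36). Socs3, a STAT3-induced inhibitor of cytokine signalling, was at 122 and 131 CPM with Stattic and at 155, 135 and 156 CPM with both, without overlap (0.23, interval -0.15 to 0.61, adjusted p = 1 by edgeR's quasi-likelihood test). Among 26 STAT3 targets 3 lay above and 6 below without overlap (9.77 and 9.14% of all genes), with a median of -0.02.

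Genes of survival and cell death, which the series title names as its subject, gave no call either. Bcl2, an inhibitor of mitochondrial apoptosis, was at 77.8 and 57 CPM with Stattic and at 90.7, 73.6 and 57.1 CPM with both (0.13, interval -0.41 to 0.67). Mcl1, a related inhibitor, was at 774 and 831 CPM against 661, 838 and 905 CPM (0.00, interval -0.38 to 0.37), and Bcl2l1, which codes for BCL-XL, at 42.2 and 36.4 CPM against 39.3, 36.2 and 42.2 CPM (0.00). The groups overlapped in each of these. Bcl2l11, the gene of the pro-apoptotic protein BIM, was at 109 and 147 CPM against 86.6, 136 and 126 CPM (-0.14, interval -0.59 to 0.31), and Ddit3, which encodes the stress factor CHOP, at 95.2 and 94.6 CPM against 89.1, 119 and 118 CPM (0.19, interval -0.20 to 0.58). Of 19 tested anti-apoptotic genes all had an interval within 2-fold (median -0.03), and of 25 pro-apoptotic genes 21 did (median -0.05), with 4 above and 4 below Stattic without overlap (9.77 and 9.14% of all genes). Both lists had 0 members at an unadjusted p under 0.05.

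The bounds say which changes these libraries could have missed. The 95% interval of the Kira8 change on top of Stattic lay within 2-fold in either direction for 10376 of 21239 genes (48.9%), and within 1.5-fold for 5093 (24.0%). The share within 2-fold was 0.145% of 7605 genes with a mean under 1 CPM, 41.5% of 4936 genes from 1 to 10 CPM, 94.9% of 6534 genes from 10 to 100 CPM and 97.7% of 2164 genes above 100 CPM. The median interval reached 2.80, 0.82, 0.43 and 0.41 on the log2 scale to either side in these 4 ranges. A gene with the median standard error of its range would have needed a change of 6.75-fold from 1 to 10 CPM, 2.69-fold from 10 to 100 CPM and 2.58-fold above 100 CPM to be called. Below 1 CPM that change was 655-fold, so a gene with the median standard error of that range could not be called in practice. Estimates beyond 2-fold numbered 200 from 1 to 10 CPM, 19 from 10 to 100 CPM and 1 above 100 CPM, which is Gzmb. Another 39 genes had no finite interval. Genes with a smaller standard error needed less. For most genes above 10 CPM a change over 2-fold lies outside the interval.

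**Figure D5:**
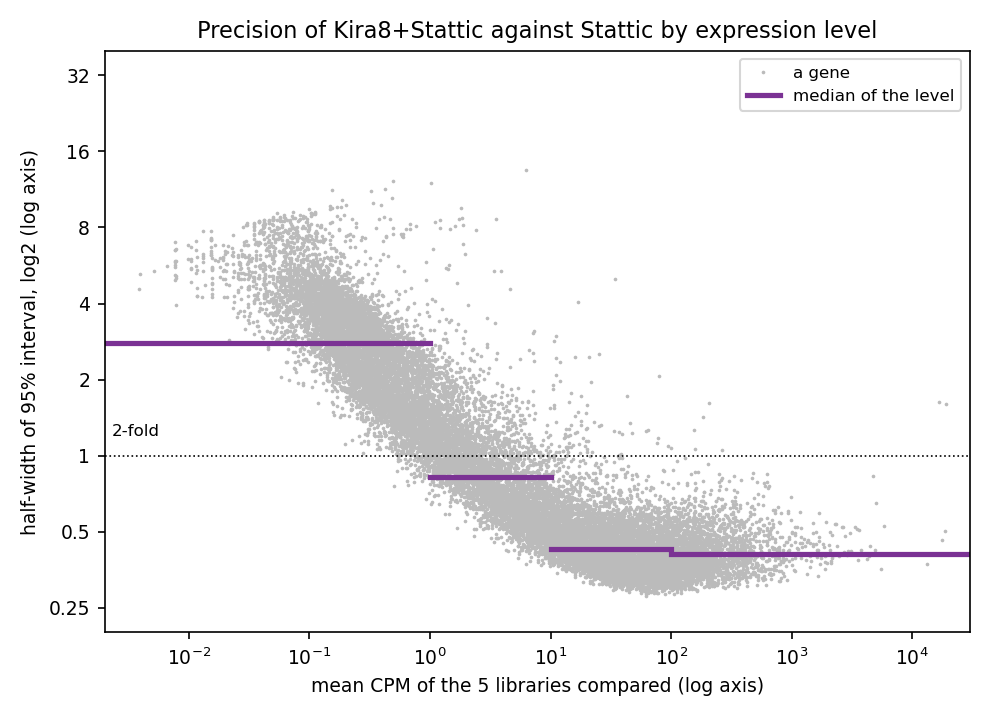
Reach of the 95% interval of the Kira8 change on top of Stattic to either side (log2, y axis) against mean level (CPM, log x axis) for genes with a finite interval; purple marks are medians by level and the dotted line a 2-fold change. Medians fall from 2.80 under 1 CPM to 0.41 above 100 CPM.

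Oocyte genes were among the higher genes of low level. They were grouped after their values were seen, and the labels name no source for them. A list of 24 oocyte genes summed to 28.2, 35.1 and 22.0 CPM in the Kira8+Stattic libraries, to 5.71 and 3.43 CPM in Stattic replicates 1 and 3 and to 76.0 CPM in Stattic replicate 2, where Tle6 (29.3 CPM), Figla (13.7 CPM) and Padi6 (12.4 CPM) gave most of it and Zp3 and Dppa3, a maternal factor gene, had none. In None they summed to 88.6, 2.00 and 1.09 CPM, and in Kira8 to 3.87, 15.2 and 3.16 CPM. Zp3, which encodes a protein of the egg coat, was at 2.17, 2.12 and 1.51 CPM with both inhibitors, at 4.70 CPM in None replicate 1, and at 0 in the other 6 of the 10 libraries. All 3 Kira8+Stattic libraries thus held it, while the None libraries differed among themselves. Of all genes tested, 14 had at least 1 CPM in None replicate 1 and in all 3 Kira8+Stattic libraries and at most 0.2 CPM in the other 6, and these are the 14 among the 23 calls of the fit of the 5 compared libraries alone. Omt2a, on the list of 24, was also called in that fit but misses the pattern. Of the 14 with the pattern, 6 are on the oocyte list. The others are not on it, though it need not hold every oocyte gene. Whatever brought them into these libraries was not tested. Gzma, Gzmb, Slc30a1 and the other genes described above are not among them.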

How the data were processed

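The authors deposited a table of unnormalized read counts in whole numbers, with 12 libraries and 55401 Ensembl genes, 55141 of them with a symbol. The genome build was mm10, per the submitters' processing notes. RNA was extracted with Trizol and had an integrity number above 7, per the labels' protocols. Not given in the sources used here: the aligner, counting program, annotation and strand setting. Counts of overlapping, antisense or near-identical genes are therefore uncertain. Gene positions come from GENCODE M21.

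Groups and replicate numbers come from the sample titles. After filterByExpr and TMM scaling, edgeR's quasi-likelihood test (edgeR 4.0.16, R 4.3.3) was run from 1 fit with each group as a coefficient, with Benjamini-Hochberg adjustment over all genes tested and calls at 0.05. Stattic replicate 2 and Kira8 replicate 2 were left out of the 10-library fit and kept in the 12-library fit. The standard error is the log2 change divided by the square root of F, and 95% intervals use the t quantile at the fit's degrees of freedom. Intervals cover the spread between these libraries only. The scripts were tested on simulated data. No pair of replicates was a copy (lowest chi-square per gene 32.8).

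Genes named are 14 followed in every comparison, the 15 called genes of largest change in each direction (where fewer than 5 were called, the 5 with the smallest p), the 10 higher and 10 lower with the largest change with Kira8 alone, and up to 4 per list. All but the followed and list genes needed a mean of 5 CPM and groups without overlap. Some of these are given as counts only, and some are not reported here. Genes outside the rule (Mt1, Mt2, Ccl4, the overlapped genes of both Gm loci, oocyte genes and other members of the lists) were chosen after values were seen. The members and lists were chosen with earlier results of these data known. Alternatives were DESeq2 1.42.0, limma voom (limma 3.58.1), other scalings and filters, a replicate block, the compared groups alone, a test against a 1.5-fold change, and leaving out each library.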

Additional observations from a re-analysis of the deposited data

Results flagged for a closer look

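The Kira8 change differed between cells with and without Stattic (the interaction in edgeR's quasi-likelihood test, Benjamini-Hochberg adjusted p under 0.05) for 1810 genes. Among genes named by the rule or described in the text, values are the log2 change with Stattic minus that without. Genes that Kira8 alone lowered had positive values: Gzmb 1.999, Prf1 2.142, Ccl3 2.788, Ccl4 3.377, Ifng 3.498, Il10 2.412, Cd40lg 1.199, Cd8a 2.279, Nkg7 1.884, Prag1 3.139 and F2rl2 3.565. ER genes followed, with Calr 0.8474, Creld2 1.266, Dnajb11 1.29, Hyou1 1.354, Manf 1.376, Pdia4 1.887, Pdia6 1.633 and Sdf2l1 2.321. Growth genes did too, with Myc 1.03, Noc4l 1.93 and Nop56 1.637. Genes that Kira8 alone raised had negative values: Vps37b -3.457, Cxcr4 -2.854, Lpin1 -2.802, Klhl24 -2.756, Casz1 -3.212, Ramp3 -3.98, Slc15a2 -2.999 and Ypel2 -2.964. Cholesterol genes gave Hmgcs1 -1.118, Fdft1 -1.199, Insig1 -1.097, Msmo1 -1.298 and Mvd -1.664. Stress and cell death genes gave Ddit3 -1.703, Chac1 -2.148, Flcn -1.521, Apaf1 -1.732 and Bcl2l11 -1.201.

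Some genes differed in another way. Gm21982 (5.466), Micu3 (1.575) and Lrfn4 (1.271) had a higher change with Stattic, and Cpa3 (-3.053), a mast cell protease gene, and Pxn (-0.761), the gene of paxillin, a lower one, in each case with the Kira8 change alone not called.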

How the results depend on the processing

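Limits come from 2 Stattic libraries of about 55 M counts: genes under 1 CPM have a median interval of 2.80 on the log2 scale to either side. Kira8+Stattic against Stattic in 10 libraries gave 3 calls with edgeR, and 51 with DESeq2 (31 higher), 1 with limma voom, 5 with no filter and 23 with only the groups compared. Leaving out each library gave 1 to 15 calls: 1 without Stattic replicate 3, 15 without None replicate 1 (9 of them found in None replicate 1 and all Kira8+Stattic libraries but hardly elsewhere) and 5 without None replicate 2. With all 12 libraries DESeq2 called 293 genes in place of 0, and the other alternatives called 0. The interaction, 1810 calls, gave 3245 with DESeq2 and 498 to 2066 when each library was left out: 498 without Kira8 replicate 1, 515 without Kira8 replicate 3, 680 without Stattic replicate 3, and 1144 and 1137 without Kira8+Stattic replicates 2 and 3. Kira8 against None, 4097 calls, gave 5437 with DESeq2 and 3622 with no filter. It gave 1642 to 4118 when each library was left out: 1802 without Kira8 replicate 1 and 1642 without Kira8 replicate 3. The cause of these moves was not tested, beyond the smaller number of libraries. Counts of genes within 2-fold spanned 8440 to 10648 when each library was left out. With the replicate block there were 4 calls, 1 higher (Gm21982) and 3 lower (Gzma, Gzmb and Ccl9), while Gm44503 was lost (adjusted p = 0.0835), and 10427 genes within 2-fold, 1784 interaction calls, 4423 for Kira8 against None and 0 in 12 libraries. The labels do not say what a number shares, so the numbers were not taken as pairs in the main fit. Of 13 same-numbered pairs 11 correlated above 0.1 in their deviations from the group means, while None with Kira8+Stattic replicate 3 had -0.157. Both pairs of Stattic with Kira8+Stattic were among the 11 (0.353 and 0.269, against -0.353 to 0.162 between different numbers), so the data hint at shared numbers. In a group of 2 libraries the deviations mirror each other, so these values are not independent. Gzma was called in 19 of 20 settings (log2 change -2.47 to -1.65), the exception being all 12 libraries. Gm21982 was called in 16, Gm44503 in 12, Micu3 in 6 and Gzmb in 5. Of 3430 values of 172 genes, 1 called value changed sign, Gm21982 with all 12 libraries, at -0.53. Values not called moved by more than their standard error in 223 cases, 135 of them with all 12 libraries, 26 gained a call and 12 lost it. With all 12 libraries 49 of 171 of these genes changed sign, called or not. Scaling by RLE or library size left the sign of every list median named in the text as it was, and moved the median over all genes by under 0.1.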
